A study of Mus musculus with 8 samples.

Results

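Lysosomes are acidic organelles in which hydrolases break down protein, glycan and lipid, and osteocytes, the cells buried in bone matrix, use them for turnover of their own membranes and organelles. A vacuolar proton pump keeps the lumen acidic, glycosylated membrane proteins line the inside, and the MiT factors TFEB, TFE3 and MITF, which bind E-box sequences near gene starts, are known to switch many of these genes on when they enter the nucleus. The 45 lysosomal genes described here, of 55359 gene identifiers in the deposited table, were chosen by name as hydrolases, membrane proteins, proton pump subunits, MiT factors and progranulin, and each matched 1 identifier. They comprise 3 MiT factors, 6 membrane proteins, 11 proteases, 9 glycosidases, 6 lipid hydrolases or their activators, 9 proton pump subunits and progranulin.

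The RNA came from MLO-Y4, a mouse cell line with osteocyte features that was immortalised by a viral T antigen under the osteocalcin promoter. The line is a single clone, and the labels call its genotype wild type. Irradiated cells (4 libraries, L5 to L8) received 1 min of light from a pulsed infrared dental laser of the Er:YAG type, at 2940 nm and a fluence of 6 J/cm2, from 25 cm above a 35-mm dish whose medium had been taken off. Non-irradiated cells (4 libraries, C5 to C8) served as the control, and the protocol does not say whether their medium was taken off too. All cells were grown on collagen and seeded 72 h before irradiation, and poly(A) RNA from total RNA collected 6 h after exposure was sequenced. The design sets exposed against unexposed cells at that one time. Nothing in the labels says that replicates were grown apart, and the p-values here therefore cover only library-to-library spread that may be technical.

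Library totals ran from 43786209 to 51734166 estimated counts. Of 10 osteocyte markers, Dkk1, Fgf23, Mepe and Sost were at 0 counts throughout, whereas Pdpn, Gja1, Phex and Tnfsf11 passed the filter on low counts, so the cell type label holds for only part of its markers. Their summed level was 995.6 to 1031.8 CPM in irradiated and 798.6 to 851.4 CPM in non-irradiated cells. Most of that sum was Pdpn (mean 608.4 against 486.8 CPM) and Gja1 (318.4 against 250.1 CPM), both called higher (edgeR adjusted p = 4.88e-07 and 1.84e-07). Phex and Tnfsf11 did not pass the test (edgeR adjusted p = 0.559 and 0.78), so the rise in the sum does not describe the markers as a group. Across all genes 1247 were higher and 1023 lower in irradiated cells, which is 15% of the 15164 tested (quasi-likelihood test of edgeR, p-values adjusted by Benjamini-Hochberg, threshold 0.05). Scaling by library totals alone gave 1050 higher (6.92%) and 1345 lower. C6 and L6 lay farthest from their groups, with a root mean square deviation of 0.0876 and 0.0873 on the log2 scale against 0.0663 to 0.0776 in the others. Levels below are CPM (counts relative to the library total after TMM scaling, in the usual CPM unit), means are given ± SD with n = 4 per group, and log2 fold changes are irradiated over non-irradiated.

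E-boxes were common at the starts of these genes, and the sequences are shown because they are the element that links the MiT factors to their targets. RefSeq promoter windows (GRCm38.p6, 250 bases before to 50 after the start) were held for 39 of the 45 genes, in 46 windows. No entry was held for Asah1, Atp6v1b2, Atp6v1c1, Atp6v1h, Ctsb and Ctsh. The 6-base E-box CACGTG, which reads the same on both strands, occurred in 13 of 39 genes (33.3%), against 8.09% of all 27025 genes with an entry. The 8-base palindrome TCACGTGA, which contains it, occurred in 7 of 39 (17.9%), against 1.12% of all genes, namely in Gla, Ctsd, Ctsa, Mcoln1, Atp6v0d1, Atp6v0e and Atp6v1a. Grn, Ctsk and Atp6v0a1, which fell in irradiated cells, had no CACGTG in their windows. Below, 6 promoter stretches are printed 5′ to 3′ on the gene's strand, with each CACGTG in capitals. Gla and Ctsd were picked because both genes fell and hold an E-box. The others were picked because they carry the palindrome or, in Lamp1, several E-boxes.
Gla, chrX:134601182-134601244, minus strand: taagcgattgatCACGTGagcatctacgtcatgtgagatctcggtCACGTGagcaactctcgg
Ctsd, chr7:142387908-142387937, minus strand: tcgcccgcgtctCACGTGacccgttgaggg
Ctsa, chr2:164833749-164833772, plus strand: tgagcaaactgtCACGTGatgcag
Mcoln1, chr8:3500436-3500491, plus strand: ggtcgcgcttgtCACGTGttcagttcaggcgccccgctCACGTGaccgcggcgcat
Atp6v1a, chr16:44139373-44139402, minus strand: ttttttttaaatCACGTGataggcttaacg
Lamp1, chr8:13159088-13159160, plus strand: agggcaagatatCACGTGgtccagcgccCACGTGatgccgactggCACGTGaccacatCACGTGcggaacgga

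The E-boxes lay at various distances from the start. Lamp1 carried 4 of them, with first bases at -61, -45, -28 and -15, and Gla carried the palindrome at -227 and again at -194. In Ctsd the palindrome lay at -98. A further 6-base E-box of Ctsd at -245 lay outside the printed stretch. For Ctsa a palindrome was also listed at 6. Some genes had several windows, so it may be the printed palindrome counted from another start. Atp6v0d1, Atp6v0e and Ctsa had a palindrome within 15 bases of the start. Ctsf, Ctsl, Gaa, Glb1 and Naglu had the 6-base E-box alone. A match describes letters in a window and says nothing of whether a factor binds there.

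**Figure D1:**
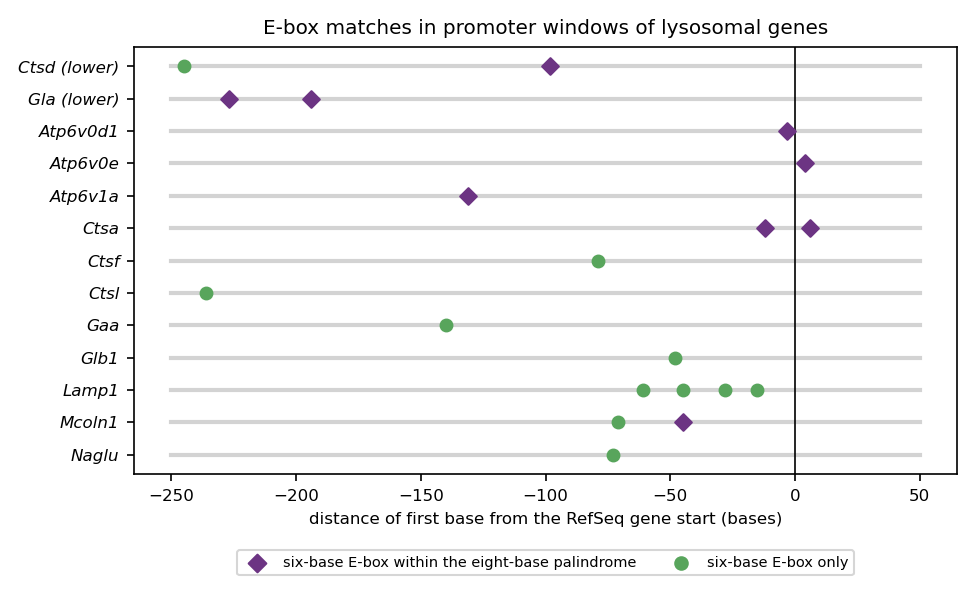
Position of each E-box in the promoter windows of the 13 lysosomal genes that hold one, as distance in bases from the RefSeq gene start; grey lines are the windows, diamonds mark E-boxes inside the 8-base palindrome and circles the other E-boxes. Gla and Ctsd, marked lower, are the genes of this group that fell in irradiated cells.

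Most lysosomal genes were strongly expressed in MLO-Y4 cells of both groups. Per kilobase of transcript, 31 of the 44 genes tested lay in the top 25% of all tested genes in non-irradiated cells, 13 of them in the top 10%, and 6 lay below the median gene. Cd63, a tetraspanin of late endosomes and lysosomes, led with 424.8 CPM per kilobase in irradiated and 412.6 in non-irradiated cells. Lamp1, a major glycoprotein of the lysosomal membrane, followed with 309.4 against 319.4. Grn (progranulin, a secreted protein that lysosomes cut into granulins) had 251.7 against 281.1. Ctsd, Psap and Ctsb lay close to Grn, at 242.9 to 259.2 CPM per kilobase in irradiated cells, where Psap and Ctsb were above Grn, and at 256.5 to 266.4 in non-irradiated cells, where all 3 were below it. The lowest of the 44 were Ctsf and Idua, at 0.976 and 1.67 CPM per kilobase in irradiated and 1.04 and 1.73 in non-irradiated cells. Ctss, a cathepsin of immune cells, had 0 counts in all 4 irradiated libraries and 0, 12, 5 and 0 in the non-irradiated ones, and it was not tested. A count of 0 allows up to 0.0685 CPM in the smallest irradiated library, or 0.274 if a fragment adds 4 counts, and such limits cover counting error only.

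**Figure D2:**
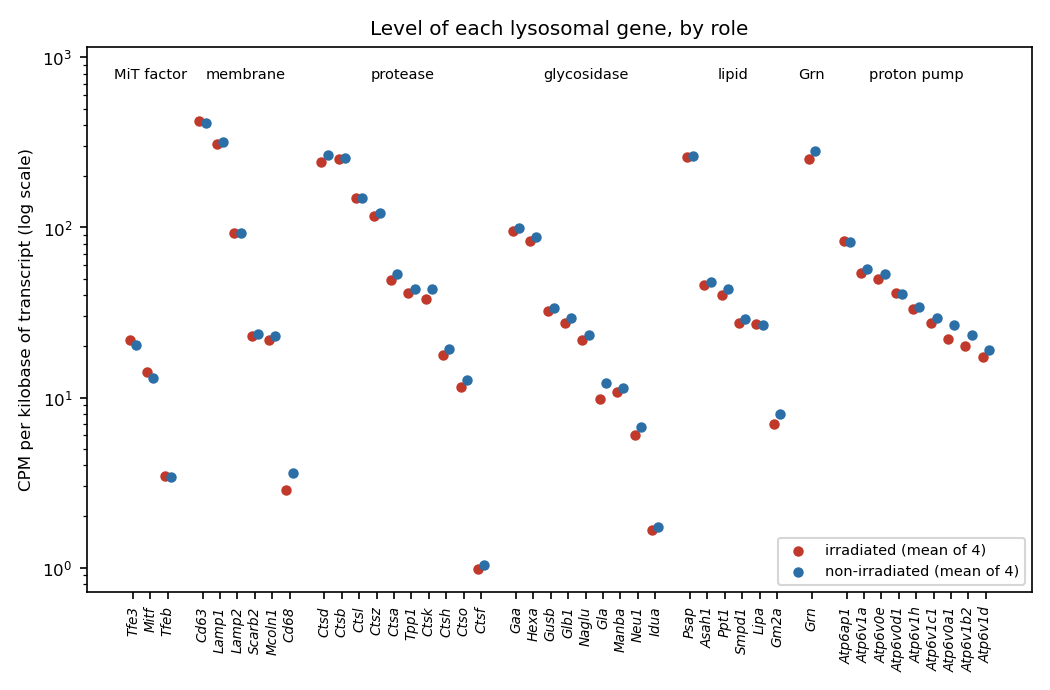
Mean level of each of the 44 tested lysosomal genes, by role and in falling order within a role, in CPM per kilobase of transcript on a log axis; red points are irradiated and blue points non-irradiated cells (4 libraries each). The paired points lie close together for every gene, and levels run from about 1 for Ctsf to 424.8 for Cd63 in irradiated cells.

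After irradiation 6 of the 44 tested genes fell and 0 rose (edgeR adjusted p under 0.05): Grn, the proteases Ctsd and Ctsk, the glycosidase Gla and the pump subunits Atp6v0a1 and Atp6v1b2. The falls were small, between 8.8% for Ctsd and 19.7% for Gla. The share called, 13.6%, was near the 15% of all genes, whereas the share called lower, the same 13.6%, stood against 6.75% of all genes and the share called higher, 0, against 8.22%. At an unadjusted p under 0.05, 13 were lower and 2 higher, against 13.5% and 13.9% of all genes and 27.4% in either direction, and DESeq2 and limma-voom called 0 higher. Of the 44 genes 36 had a log2 fold change below 0, or 81.8% against 51.6% of all genes. Their median was -0.08, against -0.01 over all genes. In 13 of the 44 (29.5%) every irradiated library lay below every non-irradiated one, against 8.78% of all genes, and in 0 did every irradiated library lie above, against 9.76%. The median level of the 44 genes per kilobase lay at percentile 81.2 of tested genes in non-irradiated cells. The shares over all genes were not matched for level. DESeq2 called 10 lower (8.97% of all genes lower, 11.2% higher) and scaling by library totals 13 (8.87% lower), with the same 6 among them both times. Upper-quartile scaling called 9 lower and 0 higher (7.48% and 7.62% of all genes), and offsets for GC content and transcript length 9 lower and 1 higher (7.14% and 8.2%). In bulk RNA, fewer cells of a type and less RNA per cell cannot be told apart.

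**Figure D3:**
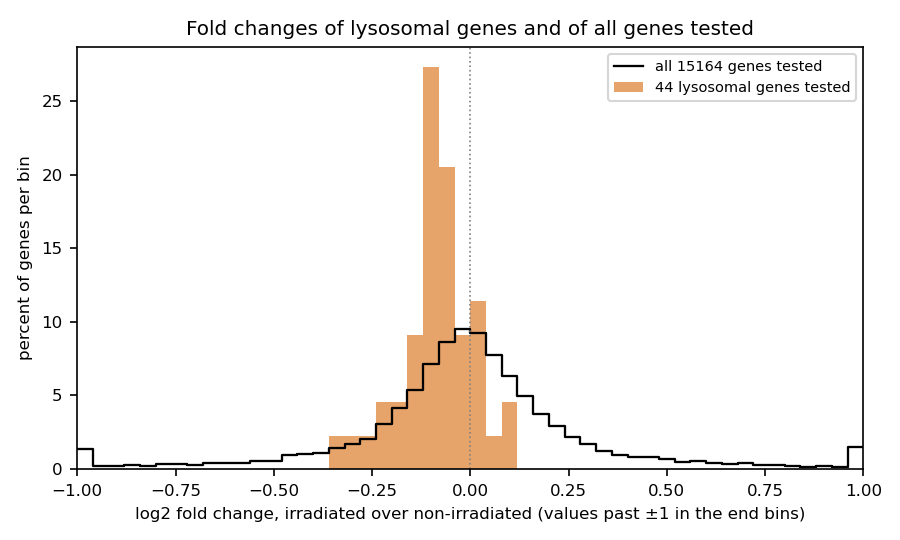
Share of genes per bin of log2 fold change (irradiated over non-irradiated); orange bars are the 44 lysosomal genes tested and the black line all 15164 genes tested, with values beyond the axis in the end bins. The bars pile up just left of 0, with a median of -0.08, and none reaches the wide tails of the line.

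Taken as a share of all counts without TMM scaling, the 45 genes held 0.755%, 0.773%, 0.767% and 0.762% in the irradiated libraries. The non-irradiated ones had 0.804%, 0.797%, 0.811% and 0.823%, so the groups did not overlap. With library totals alone the median log2 fold change of all genes was itself below 0, at -0.029. The sums that follow are in TMM-scaled CPM. The summed level of the proteases was 2598.9 to 2664.2 CPM in irradiated and 2725.1 to 2763.6 CPM in non-irradiated cells. The glycosidases summed to 770.2 to 804.3 CPM against 826.4 to 841.4 CPM, and the pump subunits to 821.8 to 858.1 CPM against 880.2 to 901.3 CPM. The lipid hydrolases and activators summed to 1072.8 to 1092.2 CPM in irradiated and 1103.3 to 1145.3 CPM in non-irradiated cells. For the membrane proteins the sums overlapped, at 1608.1 to 1667.6 CPM in irradiated and 1626.1 to 1687.3 CPM in non-irradiated cells. The MiT factors ran the other way, with 145.9 to 149.9 CPM in irradiated and 134.2 to 141.7 CPM in non-irradiated cells. These sums are descriptions and were not tested.

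**Figure D4:**
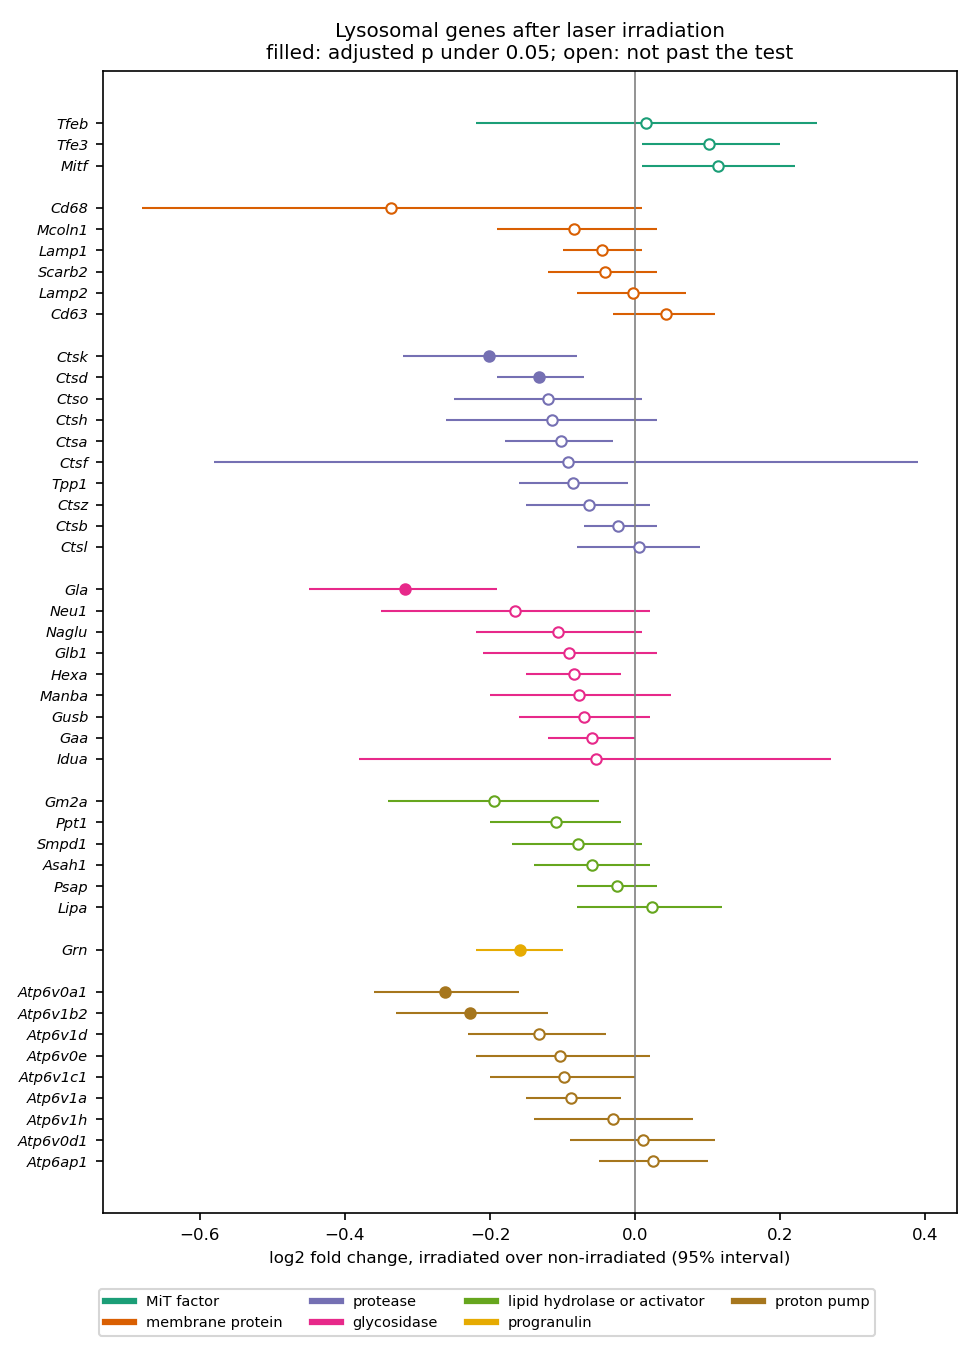
Log2 fold change of each tested lysosomal gene, irradiated over non-irradiated, with its 95% interval, grouped and coloured by role; filled points passed the test and open points did not. All 6 filled points lie left of 0, the 3 MiT factors lie at or right of it, and the intervals are widest for the low genes Ctsf, Cd68 and Idua.

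None of the MiT factor genes passed the test. Mitf (ENSMUSG00000035158.16), the family member best known from pigment cells and osteoclasts, gave 70.8, 70.7, 69 and 64.4 CPM in irradiated libraries, against 63.9, 64, 66.5 and 59.7 CPM in non-irradiated ones. The ranges overlapped through L8 and C7. Its log2 fold change was 0.11 (SE 0.0492, 95% interval 0.01 to 0.22, edgeR adjusted p = 0.135). Tfe3 (ENSMUSG00000000134.18), a widely expressed member, gave 68.7, 70.4, 73.3 and 73.7 CPM in irradiated libraries, against 69.1, 63.5, 67.1 and 67 CPM in non-irradiated ones. Only C5 reached the irradiated range, and the log2 fold change was 0.10 (SE 0.0458, 95% interval 0.01 to 0.20, edgeR adjusted p = 0.153). These intervals are for single genes and are not adjusted for the number tested. Tfeb, the member most studied for lysosome formation, was the lowest of these 3 per kilobase, at 3.46 CPM per kilobase in irradiated and 3.43 in non-irradiated cells. Its CPM values were 7.55, 8.84, 7.57 and 7.83 in irradiated libraries, against 7.45, 8.35, 8.17 and 7.52 in non-irradiated ones, so the groups overlapped throughout. Its log2 fold change of 0.01 had a 95% interval of -0.22 to 0.25 (edgeR adjusted p = 0.957). Tfec, a further family member counted here among the regulators, was lower still, at 0.285 CPM per kilobase in irradiated and 0.402 in non-irradiated cells. It did not pass the test either (log2 fold change -0.49, SE 0.488, edgeR adjusted p = 0.581).

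Progranulin gave the lowest adjusted p of the group. Grn (ENSMUSG00000034708.13) stood at 575.1, 598.1, 588.9 and 594.1 CPM in irradiated libraries, against 647.5, 638.8, 664.1 and 680.7 CPM in non-irradiated ones. Every irradiated library lay below every non-irradiated one. It fell by 10.4% (589 ± 10 against 657.8 ± 18.5 CPM; the log2 fold change was -0.16, SE 0.0282, edgeR adjusted p = 0.000511).

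Among the proteases 2 of 10 tested genes fell (20%, against 6.75% of all genes) and 8 did not pass, with a median log2 fold change of -0.10. Ctsd (ENSMUSG00000007891.17), the main aspartic protease of lysosomes, gave 504.8, 518, 510.2 and 533.6 CPM in irradiated libraries, against 567.5, 559.3, 557.5 and 581.8 CPM in non-irradiated ones. The groups did not overlap, and it fell by 8.8% (log2 fold change -0.13, SE 0.0283, edgeR adjusted p = 0.00261). Ctsk (ENSMUSG00000028111.5), a collagen-cleaving cysteine protease best known from osteoclasts, gave 57.4, 51.8, 59.9 and 59.4 CPM in irradiated libraries, against 60.5, 69, 68.6 and 64.7 CPM in non-irradiated ones. Its groups were separated only narrowly, between L7 and C5, and it fell by 13.1% (log2 fold change -0.20, SE 0.0564, edgeR adjusted p = 0.0188). The Ctsk call was lost without C7 (edgeR adjusted p = 0.0745), without L6 (0.0739), without C6 and L6 (0.131) and with offsets for GC content and transcript length (0.0509).

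Ctsb, the cysteine protease with the highest CPM of all 45 genes, gave 1179.4, 1214.2, 1219.2 and 1177.2 CPM in irradiated libraries, against 1216, 1227, 1204.7 and 1218.4 CPM in non-irradiated ones. The groups overlapped, and the 95% interval of its log2 fold change ran from -0.07 to 0.03. Ctsl, a related cysteine protease, averaged 293.3 ± 12.5 CPM in irradiated and 292.3 ± 16.9 CPM in non-irradiated cells, with an interval of -0.08 to 0.09. Ctsa, a serine carboxypeptidase that also shields Glb1 and Neu1 from breakdown, averaged 180.2 ± 7.69 against 193.4 ± 3.96 CPM (edgeR adjusted p = 0.0628, with 0.031 without C6 but 0.221 without L5). Tpp1, which removes tripeptides, averaged 146 ± 3.11 against 155 ± 3.52 CPM, without overlap (edgeR adjusted p = 0.102). The remaining cysteine proteases Ctsf, Ctsh, Ctso and Ctsz had log2 fold changes between -0.12 and -0.06.

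All 9 glycosidases had a log2 fold change below 0, as did 51.6% of all genes, and 1 of them passed the test (11.1%, against 6.75% of all genes called lower). Gla (ENSMUSG00000031266.8), alpha-galactosidase A, which takes galactose off glycolipids and is deficient in Fabry disease, gave 28.2, 31, 31.9 and 33.5 CPM in irradiated libraries, against 40.5, 39.6, 37.3 and 37.7 CPM in non-irradiated ones. The groups did not overlap, and L8, the highest irradiated library, lay below C7, the lowest non-irradiated one. It fell by 19.7% (log2 fold change -0.32, SE 0.0625, edgeR adjusted p = 0.00136). Hexa, the alpha chain of hexosaminidase, which trims gangliosides, gave 166.1, 168.2, 165.9 and 164.8 CPM in irradiated libraries, against 176.8, 172, 174 and 182.1 CPM in non-irradiated ones. Its groups did not overlap, but the adjusted p was 0.0922 by edgeR (log2 fold change -0.08). Gaa, the acid glucosidase that breaks down glycogen, had the highest glycosidase level per kilobase, and gave 312.3, 317.7, 330.7 and 327.2 CPM in irradiated libraries, against 326.9, 337.1, 337.1 and 341.1 CPM in non-irradiated ones. L7 and L8 reached above C5, the lowest non-irradiated library (edgeR adjusted p = 0.21). The others (Glb1, Gusb, Idua, Manba, Naglu and Neu1), which act on galactosides, glucuronides, iduronides, mannosides, N-acetylglucosamine and sialic acid, had log2 fold changes between -0.16 and -0.05.

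No lipid hydrolase or activator passed the test. Psap, the precursor of the saposins that present sphingolipids to their hydrolases, gave 702.3, 683.3, 698.5 and 670.2 CPM in irradiated libraries, against 701.6, 685.6, 692 and 723.7 CPM in non-irradiated ones. The groups overlapped, and the 95% interval of its log2 fold change was -0.08 to 0.03. Asah1, acid ceramidase, gave 121.3, 131.3, 121.6 and 132.7 CPM in irradiated libraries, against 134.9, 127.4, 134 and 132 CPM in non-irradiated ones, again with overlap. Gm2a, the activator that lifts GM2 ganglioside to hexosaminidase, lay below in every irradiated library, at 27.1 to 30.7 CPM against 30.7 to 35.8 CPM, where L8 and C6 are equal to 3 digits. Its log2 fold change was -0.20 (SE 0.0684, edgeR adjusted p = 0.0616, with 0.028 without C6 but up to 0.191 in other settings). Ppt1, which removes palmitate from proteins, averaged 95.3 ± 2.54 against 102.8 ± 4.7 CPM (edgeR adjusted p = 0.0897, with 0.0447 without C7 but up to 0.292 in other settings). Smpd1, acid sphingomyelinase, and Lipa, acid lipase, had log2 fold changes of -0.08 and 0.02.

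The proton pump had 2 subunits that fell (22.2%, against 6.75% of all genes) and 7 that did not pass. Atp6v0a1 (ENSMUSG00000019302.17), an isoform of the large membrane subunit of the V0 sector, which carries the protons, gave 92.9, 88.8, 80.7 and 93.9 CPM in irradiated libraries, against 106.7, 105.4, 103.9 and 111.4 CPM in non-irradiated ones. L7 was the lowest and the groups did not overlap. It fell by 16.6% (log2 fold change -0.26, SE 0.0472, edgeR adjusted p = 0.000592). Atp6v1b2 (ENSMUSG00000006273.15), an isoform of the nucleotide-binding B subunit of the V1 sector, which splits ATP, gave 60.1, 54.4, 54.1 and 57.5 CPM in irradiated libraries, against 64.4, 70, 67.2 and 63.1 CPM in non-irradiated ones. It fell by 14.5%, without overlap (log2 fold change -0.23, SE 0.0513, edgeR adjusted p = 0.00443).

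Other subunits of the same complex did not pass the test. Atp6v1a, the catalytic subunit, gave 206.9, 218.2, 208.3 and 207.3 CPM in irradiated libraries, against 221.5, 228.1, 223.3 and 220.7 CPM in non-irradiated ones. The groups did not overlap, L6 was the highest irradiated library, and the edgeR adjusted p was 0.0698 (0.0489 without L6, but up to 0.174 in other settings). Atp6v1d, part of the turning stalk, averaged 63.8 ± 1.43 against 69.9 ± 2.87 CPM, also without overlap (edgeR adjusted p = 0.0584, with 0.0244 without C6 but up to 0.179 in other settings). Atp6ap1, an accessory protein that helps the pump assemble and has the highest level per kilobase of the 9 pump genes, gave 175.3, 187.4, 189.1 and 177.8 CPM in irradiated libraries, against 175.6, 180.3, 177.3 and 183.7 CPM in non-irradiated ones. The irradiated libraries spanned the whole non-irradiated range. Atp6v0d1 and Atp6v1h had 95% intervals of -0.09 to 0.11 and -0.14 to 0.08, and Atp6v0e and Atp6v1c1 log2 fold changes of -0.10 each.

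No membrane protein passed the test, and the log2 fold changes ran from -0.34 for Cd68 to 0.04 for Cd63. Lamp1 (ENSMUSG00000031447.8) gave 678.7, 710.2, 684 and 685.3 CPM in irradiated libraries, against 715.1, 706.7, 716.5 and 709.4 CPM in non-irradiated ones. L6 alone reached the non-irradiated range (log2 fold change -0.05, edgeR adjusted p = 0.271). Cd63 (ENSMUSG00000025351.15) gave 437.1, 458.1, 452.4 and 458.6 CPM in irradiated libraries, against 435.1, 411.4, 445.9 and 462.2 CPM in non-irradiated ones. These overlapped, yet with offsets for GC content and length Cd63 was called higher (log2 fold change 0.09, edgeR adjusted p = 0.0181). Lamp2, which is also needed for fusion with autophagosomes, averaged 334.8 ± 11.6 against 335.5 ± 16.7 CPM, with a 95% interval of -0.08 to 0.07. Scarb2, the carrier of glucocerebrosidase to lysosomes, and Mcoln1, a calcium release channel, had log2 fold changes of -0.04 and -0.08.

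Cd68, a macrophage-rich relative of the LAMP proteins, was low, at 3.53, 3.76, 2.96 and 3.81 CPM in irradiated libraries against 4.07, 5.07, 4.5 and 4.14 CPM in non-irradiated ones. The groups did not overlap, and the log2 fold change of -0.34 had an SE of 0.164 (edgeR adjusted p = 0.193). Of 13 macrophage and osteoclast markers, Ptprc, Adgre1, Tyrobp, Itgam, Acp5, Dcstamp and Calcr had 0 counts in every library. Of these markers Csf1r and Cd14 passed the filter, and both rose, Csf1r to 26.2 ± 1.2 CPM in irradiated cells against 14.2 ± 1.17 CPM in non-irradiated cells (edgeR adjusted p = 1.06e-07). The summed marker level was 45 to 47.6 CPM in irradiated and 26.5 to 30.8 CPM in non-irradiated cells. Nearly all of that sum was Csf1r and Cd14 (mean of Cd14 20 against 14.2 CPM), so its rise does not describe the markers as a group. The part of these markers in the lysosomal values was not tested. Summed endothelial markers were 0.272 to 0.663 against 0.251 to 0.915 CPM, with Cdh5 and Kdr at 0, and adipocyte markers 0.136 to 0.643 against 0.159 to 0.712 CPM, with Adipoq and Cidec at 0.

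**Figure D5:**
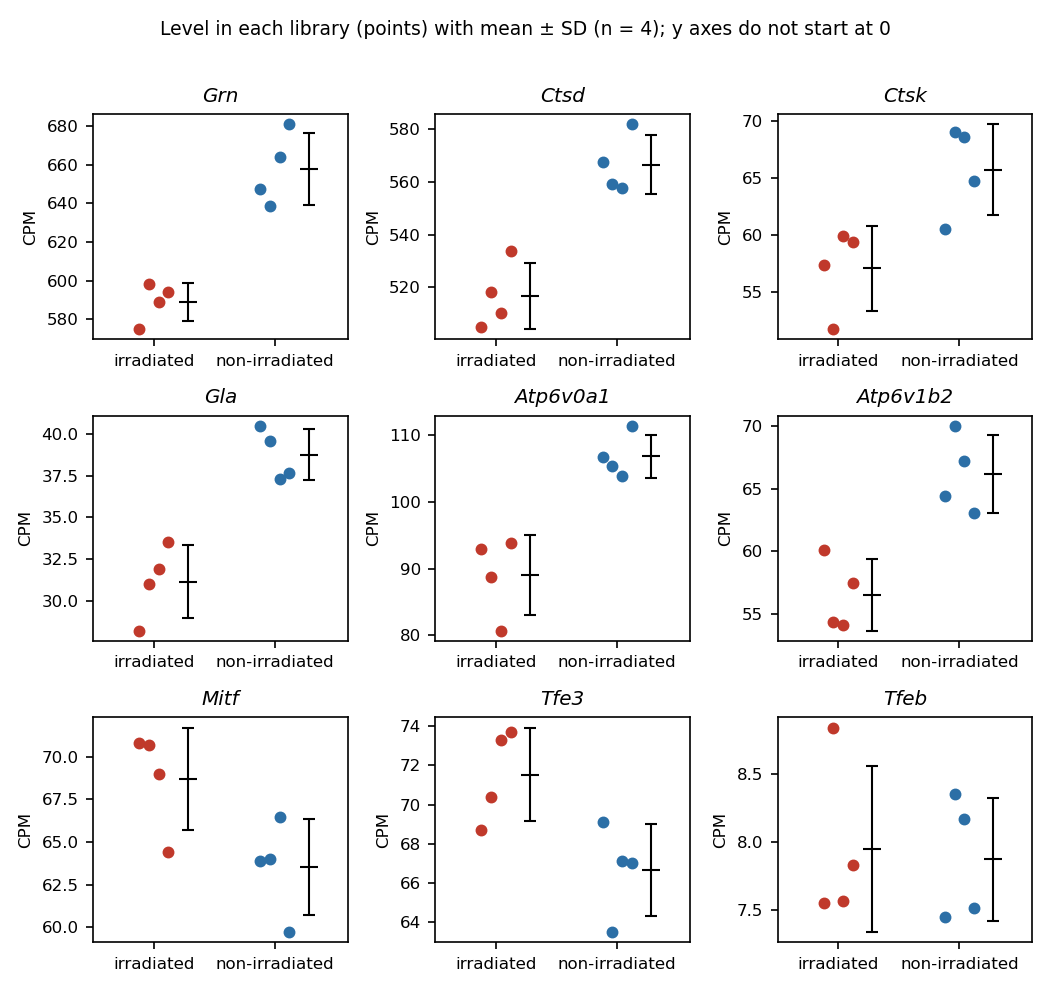
CPM in each library of the 6 lysosomal genes that fell and of the 3 MiT factors; red points are the irradiated and blue points the non-irradiated libraries, and black bars are mean ± SD (n = 4 per group). The groups are apart in the first 6 panels and overlap in the panels of Mitf, Tfe3 and Tfeb.

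The E-box was set beside the response as a description. Among genes with the 8-base palindrome 2 of 7 fell (Gla and Ctsd), with a median log2 fold change of -0.10, and among tested genes with an entry but no palindrome 3 of 31 fell, with a median of -0.08. For the 6-base E-box the medians were -0.09 with it (13 genes, 2 fell) and -0.08 without it (25 genes, 3 fell). These differences were not tested.

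Other genes of the pathway came from lists that leave out the 45. Of 118 tested genes 15 fell (12.7%, against 6.75% of all genes) and 4 rose (8.22% of all genes were higher). Their median log2 fold change was -0.04. Leaving out C5, L7 or L8 in turn left 8 called lower (6.78%), where 4.57%, 4.5% and 5.02% of all genes were called lower in the same fits.

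Further pump subunits fell in 1 of 11 (9.09%, against 6.75% of all genes). This was the V1 stalk gene Atp6v1g1 (76.7 ± 1.77 against 84.9 ± 1.4 CPM, edgeR adjusted p = 0.0172, with 0.0573 without C5, 0.0716 without L7 and 0.0755 under GC and length offsets). Further enzymes and cofactors fell in 5 of 39 (12.8%, against 6.75% of all genes). Arsg, a sulfatase that acts on heparan sulfate, showed the largest fall of these, to 4.42 ± 0.73 CPM in irradiated cells against 7.53 ± 0.911 CPM in non-irradiated cells (log2 fold change -0.76, SE 0.151, edgeR adjusted p = 0.00142). The peptidase genes Dpp7 and Scpep1 fell (log2 fold changes -0.29 and -0.15, edgeR adjusted p = 0.0114 and 0.00223; Dpp7 0.0517 without C5 and 0.0553 without C6 and L6). Npc2, which hands cholesterol to the exporter NPC1 and was named after its values were seen, also fell (392.9 ± 9.57 against 434.8 ± 4.62 CPM, edgeR adjusted p = 0.00117).

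Further membrane proteins rose in 2 and fell in 4 of 31 (12.9% lower, where 6.75% of all genes were lower and 8.22% higher). Cd164, a sialomucin, rose and Laptm4b fell, both named after their values were seen (log2 fold changes 0.13 and -0.14, edgeR adjusted p = 0.00471 and 0.0241). The Laptm4b call was lost without C5, L5 or L8 in turn (up to 0.0937, without C5). It was also lost in edgeR with GC and length offsets (adjusted p = 0.0591) and with a block by library number (0.0584). The cobalamin transport genes split, with Abcd4 lower (64.2 ± 3.18 against 74.6 ± 5.04 CPM, edgeR adjusted p = 0.0088) and Lmbrd1 higher (63 ± 0.348 against 56.2 ± 3.16 CPM, adjusted p = 0.0276, but lost without C5, C7, C8, L5, L7 or L8 in turn, up to 0.0977 without C7). Ctns, the cystine exporter, and Slc15a4, a peptide and histidine transporter, were lower (log2 fold changes -0.25 and -0.24, edgeR adjusted p = 0.0485 and 0.0261), but the Ctns call was lost without any 1 library other than L5 (up to 0.179, without L7) and the Slc15a4 call without C7, L6, L7 or L8 in turn (up to 0.113, without C7). Ctns was not called by limma-voom (adjusted p = 0.055) or by edgeR with GC and length offsets (0.0557). With a block by library number edgeR called none of Ctns (adjusted p = 0.0509), Slc15a4 (0.0583) and Lmbrd1 (0.0516), and with library totals alone Lmbrd1 was lost too (0.0538). Of the genes that deliver enzymes to lysosomes 1 of 15 rose, where 8.22% of all genes were higher. This was the Golgi adaptor Gga2 (243 ± 4.87 against 221.4 ± 2.03 CPM, edgeR adjusted p = 0.00445). Cln8, which helps enzymes leave the endoplasmic reticulum, was the 1 that fell (6.67%, against 6.75% of all genes). Its log2 fold change was -0.17 (edgeR adjusted p = 0.0486), a call lost without any 1 library (up to 0.141, without L5). The Cln8 call was also lost with limma-voom (adjusted p = 0.0529). In edgeR it was lost with a filter of 1 count over all libraries (adjusted p = 0.0742), counts divided by 4 (0.0519) and a block by library number (0.092).

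Regulators of the MiT factors, which act largely through nutrient sensing at the lysosome surface, fell in 4 of 22 and rose in 1. The share lower was 18.2%, where 6.75% of all genes were lower and 8.22% higher. Lamtor1, the membrane anchor of the Ragulator complex on lysosomes, fell to 74.9 ± 1.96 CPM in irradiated cells, against 88 ± 2.66 CPM in non-irradiated cells (log2 fold change -0.23, SE 0.042, edgeR adjusted p = 0.000643). Flcn, folliculin, which lets the kinase mTOR reach TFEB and TFE3, fell to 41.7 ± 2.71 CPM against 49.2 ± 2.15 CPM (edgeR adjusted p = 0.00726). Its partner Fnip2 fell too (log2 fold change -0.19, edgeR adjusted p = 0.0295), but that call was lost without C6, C7, L5, L6, L7 or L8 in turn (up to 0.109, without L7) and with a block by library number (0.0537). C6 had 83.2 CPM against 67.1 to 71.6 CPM in the other non-irradiated libraries, and without it the log2 fold change was -0.12 (adjusted p = 0.0888). Mtor itself rose to 121.5 ± 7.73 CPM against 106.4 ± 3.96 CPM (edgeR adjusted p = 0.0069), with overlapping groups. Its adjusted p by edgeR was 0.133 when GC and length offsets were used. Rheb, the GTPase that activates mTOR, was the fourth that fell and was named after its values were seen (37.8 ± 0.504 against 42.6 ± 1.04 CPM, edgeR adjusted p = 0.0274). Its call was lost without C5, C8, L5, L7 or L8 in turn (up to 0.0773, without C8). It was also lost in edgeR with GC and length offsets (adjusted p = 0.0601) and with a block by library number (0.0616).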

How the data were processed

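The authors deposited 1 table of estimated counts per gene, as whole numbers and without normalization. StringTie 2.1.7, HISAT2 2.2.1, DESeq2 1.32.0, FastQC 0.11.9 and Trimmomatic 0.39, and the build GRCm39, come from the submitters' processing notes. The sources used here do not give settings, annotation or use of strand, so overlapping genes and near-identical copies are uncertain. The value 4 occurred 6096 times, against 4006 times for 3 and 2428 times for 5, so a fragment may add about 4 counts. That step is uncertain, because 1 occurred 6623 times and 8 (2551 times) barely exceeded 7 (2515 times). Library pairs within a group differed by 9.08 to 16.3 times the Poisson expectation.

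All 8 columns were used. Columns carry numbers 5 to 8 and titles 1 to 4, so a column was tied to its group only. Symbols, lengths (first-numbered APPRIS principal transcript) and GC content came from GENCODE M21, a GRCm38 release. Genes passed filterByExpr of edgeR (minimum count 10), which 44 of the 45 lysosomal genes did, with at least 66 counts in every library. Libraries were scaled by TMM (0.989 to 1.01) and tested with glmQLFit and glmQLFTest (robust, group only; edgeR 4.0.16, R 4.3.3), and p-values were adjusted over all 15164 genes. Standard errors are the size of the log2 fold change divided by the square root of F. The test was tried on simulated data in which 200 genes were changed, far fewer than were called here, and no result rests on that trial. Alternatives were DESeq2 1.42.0, limma-voom (3.58.1), other scalings and filters, counts divided by 4, offsets for GC content and length, a library-number block and each library left out.

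The genes and lists were chosen with earlier results of these data known. Library values are given for the MiT factors, each gene past the test and the 2 highest per kilobase in each role, and values for up to 4 called genes from each further list, of which 1 is not reported here. Cd68, Npc2, Rheb, Cd164 and Laptm4b were added after their values were seen.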

Additional observations from a re-analysis of the deposited data

Results flagged for a closer look

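Each group of 4 libraries was checked for a single library set apart from the other 3 by more than the Dixon 95% critical value for the ratio of gap to range. Of 88 groups checked 3 met it, and chance gives about 1 in 20. Atp6v0d1, a V0 subunit, stood at 70.9 CPM in L6 against 64.9 to 65.7 CPM in the other irradiated libraries. Atp6v1a, the catalytic pump subunit, stood at 218.2 CPM in L6 against 206.9 to 208.3 CPM in the other irradiated libraries, and passed the test without that library. Atp6v1c1, a V1 subunit, stood at 63.1 CPM in C8 against 59.9 to 60.2 CPM in the other non-irradiated libraries.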

How the results depend on the processing

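The 44 lysosomal genes tested and the further genes called were refitted under 17 alternatives. The count of lysosomal genes called lower was 10 with DESeq2, 13 with library totals alone and 6 to 9 in the other settings, and the count called higher was 0 except for 1 (Cd63) with offsets for GC content and length. Grn, Ctsd, Gla, Atp6v0a1 and Atp6v1b2 kept their calls in all 17, and Ctsk lost its call in 4. Of the lysosomal genes not called, Ctsa, Atp6v1d, Gm2a, Atp6v1a, Ppt1, Hexa, Tpp1 and Cd63 passed in 1 to 6 settings. The median log2 fold change of the 44 genes was -0.107 with library totals alone, where that of all genes was -0.029, and it ran from -0.087 to -0.068 when 1 library was left out. Among the further lists, where 15 were called lower (12.7%, against 6.75% of all genes), 8 were lower with the replicate block by library number (6.78% against 4.95%), and 8 to 13 when 1 library was left out, where 4.5% to 7.57% of all genes were. The causes were not tested. Same-numbered libraries did not deviate together (correlations -0.046 to 0.001). A weak shared effect could still be missed, because no pairs with different numbers were set beside these values. The block by library number left the count of lysosomal genes called lower at 6. Over all genes the block called 1006 higher and 751 lower. Leaving out C6 and L6 was chosen after seeing the data. The genes at the bottom of the range (Ctsf, Cd68 and Idua) had the widest intervals, and a fragment may add about 4 counts.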
